A study of Homo sapiens with 12 samples.

Results

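The genes described here encode the oxygen sensing core of the hypoxia-inducible factor (HIF) pathway. They are the VHL ligase subunit, the alpha subunits HIF1A, EPAS1 (HIF-2 alpha) and HIF3A, their partners ARNT and ARNT2, the prolyl hydroxylases EGLN1, EGLN2 and EGLN3, and the asparaginyl hydroxylase HIF1AN. These 10 genes were chosen by name, with earlier results of these data known. Each matched 1 Ensembl identifier among the 60663 in the count table. RNA was sequenced from RCC4, a line derived from clear cell renal carcinoma, once without VHL per its label (VHL-negative cells) and once with VHL put back (VHL-positive cells).

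Each line received either 5 µM JQ1, which blocks the bromodomains of BET proteins and is a MYC inhibitor in the labels, or the solvent DMSO. The 4 groups were therefore VHL-negative cells with JQ1, VHL-negative cells with DMSO, VHL-positive cells with JQ1 and VHL-positive cells with DMSO, with 3 libraries in each. All of these cells grew in high glucose medium with serum and geneticin. The labels do not name the VHL construct or say whether a line was 1 clone, how long the treatment lasted or whether replicates were separate cultures, so the p-values may measure technical spread only.

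In oxygenated cells the EGLN enzymes hydroxylate prolines of the HIF alpha subunits, and VHL, the substrate receptor of a cullin ubiquitin ligase, then binds the modified subunit and marks it for degradation. HIF1AN hydroxylates an asparagine and so keeps coactivators away from the alpha subunit. A stabilised alpha subunit pairs with ARNT and switches on genes of glycolysis, vessel growth and pH control. Loss of VHL is the hallmark lesion of clear cell renal carcinoma, and it acts on HIF alpha as protein, which RNA counts do not measure.

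Total counts per library ran from 15452949 (the second JQ1 library of VHL-negative cells) to 32502310. Levels are given as CPM, counts set relative to library sizes that were scaled with TMM, edgeR's correction for differences in composition. Each change is a log2 fold change by the quasi-likelihood test of edgeR, called at a Benjamini-Hochberg adjusted p under 0.05 over 20714 genes. All 10 markers of renal tubule and renal carcinoma passed the filter on low counts, with a summed level between 2470 and 3540 CPM. The highest of them was VIM, at up to 1780 CPM, whereas CUBN averaged 0.627 to 1.27 CPM in the groups. Among markers of other cells, endothelial ones reached at most 9.89 CPM (ESAM), leukocyte ones 4.36 CPM (CSF1R) and those of fibroblasts and pericytes 25.5 CPM (RGS5), and their part in the results was not tested. Summed, they reached at most 10.1 CPM (endothelial), 4.9 CPM (leukocyte) and 27.5 CPM (fibroblasts and pericytes). In bulk RNA, fewer cells expressing a gene and less RNA per cell cannot be told apart.

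VHL itself was examined first, beside the labels, which state VHL status and not its RNA level. VHL (ENSG00000134086, GRCh38 chr3:10141008-10152220) had 35.2, 32.4 and 30.5 CPM in VHL-negative cells with JQ1 and 24.9, 28.2 and 26.2 CPM in VHL-negative cells with DMSO. In VHL-positive cells it had 219.7, 196 and 221 CPM with JQ1 and 67.3, 64.6 and 78.9 CPM with DMSO. Every VHL-negative library lay below every VHL-positive library, although VHL RNA was present in all 12. These counts do not separate an introduced VHL copy from the cells' own gene.

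Between the lines VHL RNA was 6.49-fold lower in VHL-negative cells under JQ1 (log2 -2.70, adjusted p = 4.82e-11, SE 0.131). Under DMSO it was 2.66-fold lower (log2 -1.41, adjusted p = 1.28e-07, SE 0.126). JQ1 raised VHL 3.02-fold in VHL-positive cells, to 212 ± 14.0 CPM, against 70.3 ± 7.62 CPM with DMSO (SD, n = 3 each; log2 1.59, adjusted p = 1.76e-07, SE 0.125). In VHL-negative cells VHL averaged 32.7 ± 2.39 CPM with JQ1 and 26.4 ± 1.65 CPM with DMSO, and this did not pass the threshold (log2 0.31, 95% interval 0.04 to 0.57, adjusted p = 0.0691), although the libraries did not overlap. A filter at 1 CPM (log2 0.35, adjusted p = 0.0232) and a fit to protein-coding genes (log2 0.39, adjusted p = 0.0114) each called this rise. The JQ1 effect on VHL was smaller in VHL-negative cells by 1.29 on the log2 scale, given as VHL-negative minus VHL-positive (log2 -1.29, adjusted p = 0.00123, SE 0.175). Leaving out the third JQ1 library in each line ended the call (log2 -1.22, adjusted p = 0.0582).

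**Figure D1:**
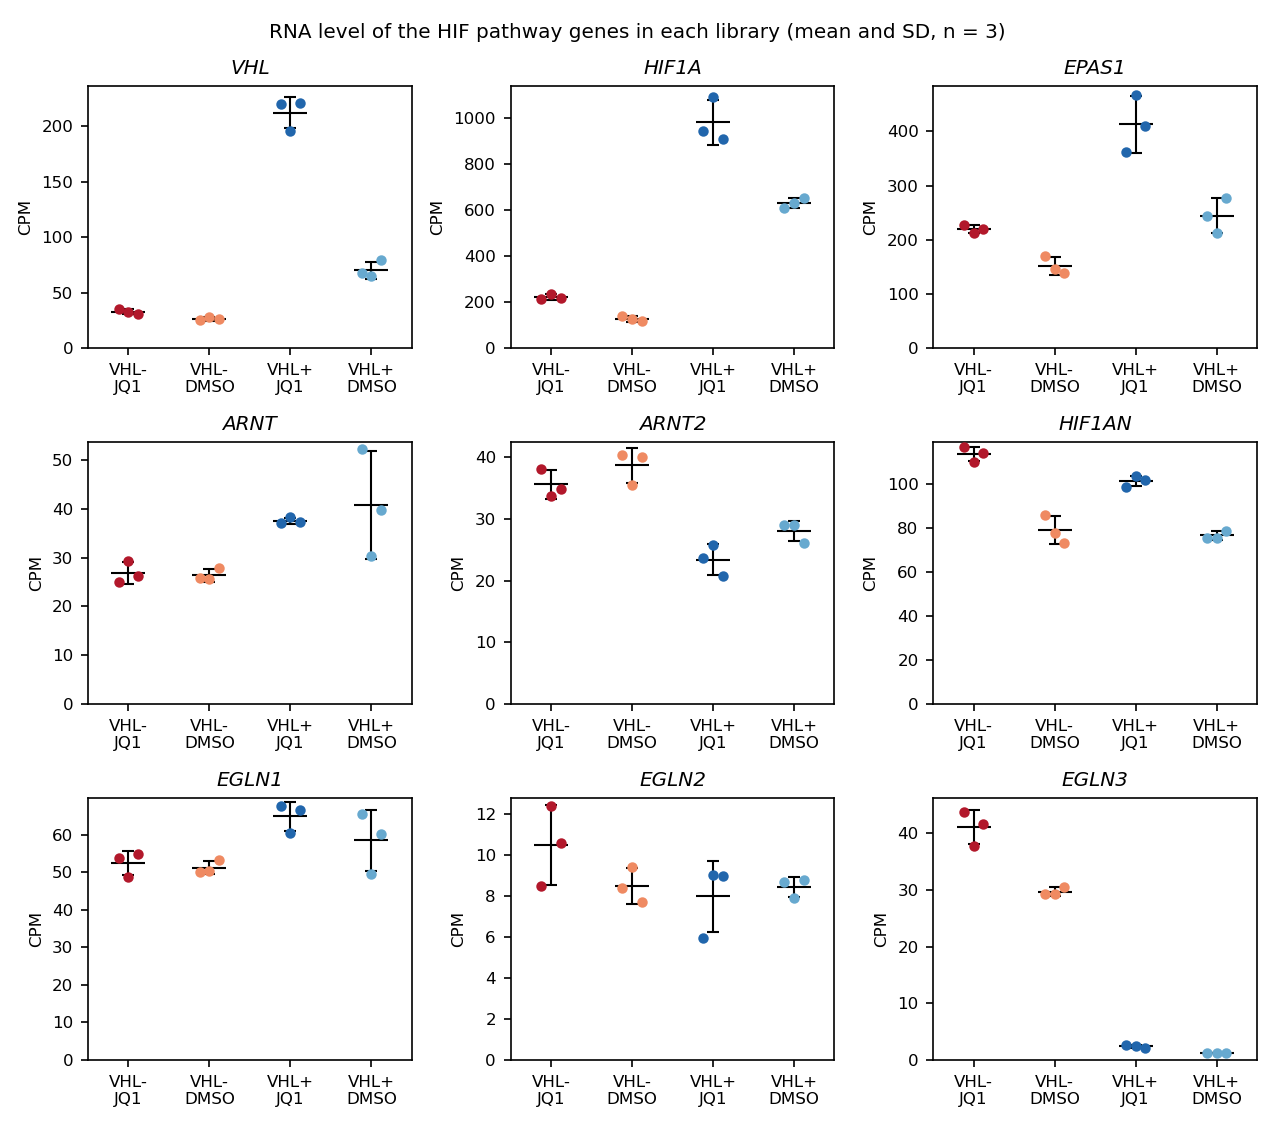
RNA level in CPM (y axis, linear from 0) of 9 of the 10 genes in each of the 12 libraries, by line and treatment; points are libraries, horizontal marks the mean and bars the SD (n = 3). VHL, HIF1A and EPAS1 are lower in VHL-negative than in VHL-positive cells, EGLN3 is between 37.8 and 43.7 CPM in VHL-negative cells with JQ1 against 2.18 to 2.62 CPM in VHL-positive cells with JQ1, and HIF3A, with at most 8 counts, is not drawn.

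VHL works in a ligase with elongin B (ELOB), elongin C (ELOC), the scaffold CUL2 and the RING protein RBX1. None of these 4 partners passed the threshold with JQ1 in VHL-negative cells or between the lines under DMSO, with an unadjusted p under 0.05 for 0 of them and 0 calls by DESeq2 and by limma-voom, although 1 fell with JQ1 in VHL-negative cells when the first JQ1 library of these cells was left out. The JQ1 comparison in VHL-negative cells called 32.2% of all tested genes, and that between the lines under DMSO 30.7%. In VHL-positive cells JQ1 raised 2 of the 4 partners and lowered none, with a median of log2 0.43 against -0.03 over all tested genes. There 15.3% of all tested genes rose and 16.4% fell. ELOB measured 103 ± 4.63 CPM with JQ1 and 71.9 ± 8.11 CPM with DMSO there (log2 0.52, adjusted p = 0.0173, SE 0.157). RBX1 measured 49.5 ± 5.96 CPM with JQ1 and 33 ± 2.87 CPM with DMSO (log2 0.58, adjusted p = 0.0285, SE 0.193). With total counts in place of TMM, 1 of the 4 rose. The call of ELOB was lost in 3 and that of RBX1 in 5 of 12 fits made with a single library left out, and neither was called without the first JQ1 library, the second DMSO library or the third DMSO library of VHL-positive cells. Under JQ1, ELOB was lower in VHL-negative cells, at 58.9 ± 13.4 CPM against 103 ± 4.63 CPM in VHL-positive cells (log2 -0.81, adjusted p = 0.000652, SE 0.158). It was the single partner called in that comparison, which called 41% of all tested genes.

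Of the alpha subunits, HIF1A and EPAS1 had the highest RNA levels per length among the members and HIF3A the lowest. HIF1A (ENSG00000100644, chr14:61695513-61748259), the broadly expressed alpha subunit, had 213, 236 and 218 CPM in VHL-negative cells with JQ1 and 139, 127 and 115 CPM in VHL-negative cells with DMSO. VHL-positive cells had 944, 1090 and 907 CPM with JQ1 and 606, 632 and 651 CPM with DMSO. The 4 groups did not overlap. HIF1A RNA was thus lower in VHL-negative cells, by 4.42-fold under JQ1 (log2 -2.14, adjusted p = 1.47e-09, SE 0.135) and by 4.96-fold under DMSO (log2 -2.31, adjusted p = 5.1e-10, SE 0.136). JQ1 raised HIF1A 1.75-fold in VHL-negative cells (log2 0.81, adjusted p = 0.000166, SE 0.13) and 1.56-fold in VHL-positive cells (log2 0.64, adjusted p = 0.00124, SE 0.13). The difference between both JQ1 effects was log2 0.17 with a 95% interval from -0.22 to 0.55, which did not pass the threshold (adjusted p = 0.602). Its antisense gene HIF1A-AS1, which overlaps 2.27% of HIF1A's exon length, held 1 to 19 counts per library against 3187 to 26918 for HIF1A.

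EPAS1 (ENSG00000116016, chr2:46293667-46386703), the alpha subunit of HIF-2 and the form most tied to renal carcinoma growth, had 226, 212 and 219 CPM in VHL-negative cells with JQ1 and 169, 145 and 138 CPM in VHL-negative cells with DMSO. VHL-positive cells had 363, 467 and 409.9 CPM with JQ1 and 244, 213 and 277 CPM with DMSO. The treated libraries lay above the controls in both lines, and the VHL-negative libraries lay below the VHL-positive ones within each treatment. EPAS1 rose with JQ1 by 1.45-fold in VHL-negative cells (log2 0.54, adjusted p = 0.00724, SE 0.14) and by 1.69-fold in VHL-positive cells (log2 0.76, adjusted p = 0.000588, SE 0.14). The call in VHL-negative cells was lost when the third JQ1 library was left out in each line (log2 0.54, adjusted p = 0.0508). Between the lines it was 1.89-fold lower in VHL-negative cells under JQ1 (log2 -0.92, adjusted p = 7.14e-05, SE 0.141) and 1.62-fold lower under DMSO (log2 -0.70, adjusted p = 0.000993, SE 0.14). Its JQ1 effects differed by log2 -0.22 (95% interval -0.63 to 0.20, adjusted p = 0.526).

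HIF3A (ENSG00000124440, chr19:46297046-46343433), whose products include inhibitory forms, held 0 to 8 counts in every library and did not enter the tests. With JQ1 the counts were 4, 5 and 2 in VHL-negative cells, where DMSO libraries had 2, 1 and 2. VHL-positive libraries had 2, 0 and 2 counts with JQ1 and 8, 4 and 2 with DMSO. Most of these counts sit at or near the floor of 3 counts, so no difference was detectable at this depth.

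The promoters of both expressed alpha subunits are shown because these genes rose together with JQ1 in both lines. The windows are the 250 bases before the RefSeq gene start on GRCh38.p14, and capitals mark the core letters of the hypoxia response element, which were searched as ACGTG and, in its other common form, as GCGTG on either strand. ACGTG was found in 18.5% and GCGTG in 32.2% of 35116 windows of this length, and at least 1 of them in 43.2%, so these matches are common. The first window of HIF1A (chr14:61695263-61695512, plus strand) and that of EPAS1 (chr2:46297157-46297406, plus strand) each held 1 GCGTG and no ACGTG. A second window of HIF1A (chr14:61697462-61697711, plus strand), which is not printed, held neither. The EPAS1 window lies inside the gene span of GENCODE release 29, which starts further upstream.
HIF1A: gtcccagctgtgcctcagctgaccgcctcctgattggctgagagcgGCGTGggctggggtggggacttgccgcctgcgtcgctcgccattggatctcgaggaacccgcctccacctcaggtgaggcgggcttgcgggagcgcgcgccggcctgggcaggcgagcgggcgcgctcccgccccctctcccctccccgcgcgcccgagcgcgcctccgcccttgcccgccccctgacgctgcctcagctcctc
EPAS1: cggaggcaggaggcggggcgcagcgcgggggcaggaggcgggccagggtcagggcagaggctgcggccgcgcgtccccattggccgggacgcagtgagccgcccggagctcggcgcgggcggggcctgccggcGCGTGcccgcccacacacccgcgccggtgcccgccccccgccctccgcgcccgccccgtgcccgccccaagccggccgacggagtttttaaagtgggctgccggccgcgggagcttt

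ARNT and ARNT2, the partners that alpha subunits need to bind DNA, moved in opposite directions between the lines. ARNT (ENSG00000143437, chr1:150809705-150876768) had 25.0, 29.3 and 26.2 CPM in VHL-negative cells with JQ1 and 25.8, 25.5 and 28.0 CPM in VHL-negative cells with DMSO. In VHL-positive cells it had 37.2, 38.3 and 37.3 CPM with JQ1 and 52.3, 30.4 and 39.8 CPM with DMSO. The VHL-negative libraries lay below the VHL-positive ones in both treatments, with a wide spread among the VHL-positive DMSO libraries. ARNT was lower in VHL-negative cells under JQ1 (log2 -0.49, adjusted p = 0.0221, SE 0.16) and under DMSO (log2 -0.63, adjusted p = 0.00586, SE 0.159). The value under DMSO was log2 -0.41 (adjusted p = 0.0436) without the first VHL-positive DMSO library, and the call under JQ1 was lost with total counts (log2 -0.32, adjusted p = 0.177), in the fit to protein-coding genes (adjusted p = 0.0974), and without the third JQ1 library of VHL-negative cells (adjusted p = 0.0716) or the second of VHL-positive cells (adjusted p = 0.0557).

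ARNT2 (ENSG00000172379, chr15:80404350-80597937) had 38.1, 33.7 and 34.9 CPM in VHL-negative cells with JQ1 and 40.4, 35.4 and 40.1 CPM in VHL-negative cells with DMSO. VHL-positive cells had 23.7, 25.7 and 20.7 CPM with JQ1 and 28.97, 29.03 and 26.1 CPM with DMSO. ARNT2 was higher in VHL-negative cells under JQ1 (log2 0.61, adjusted p = 0.00111, SE 0.126) and under DMSO (log2 0.46, adjusted p = 0.00894, SE 0.125), where leaving out the third VHL-positive DMSO library ended the call (adjusted p = 0.0583). Neither partner passed with JQ1 in either line. The 95% interval for ARNT ran from -0.32 to 0.36 in VHL-negative and from -0.45 to 0.21 in VHL-positive cells. That for ARNT2 ran from -0.38 to 0.14 in VHL-negative and from -0.53 to 0.00 in VHL-positive cells, where the treated libraries all lay below the controls and total counts called a fall (log2 -0.38, adjusted p = 0.0406).

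**Figure D2:**
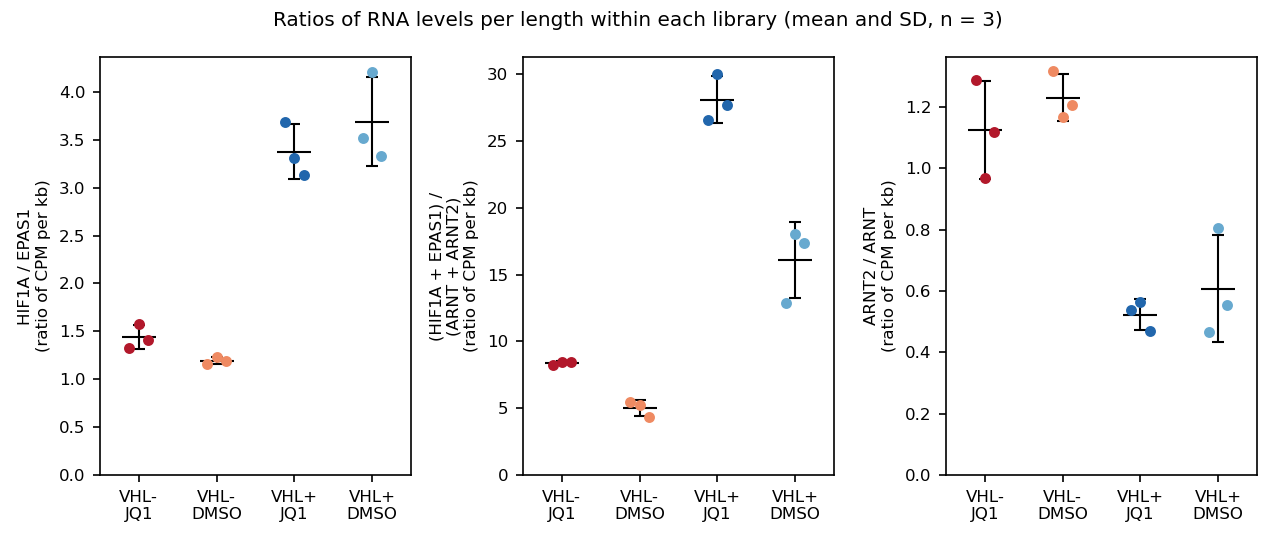
Ratios of CPM per kilobase of exon (y axes, linear from 0) of HIF1A to EPAS1, of both alpha subunits to both ARNT partners and of ARNT2 to ARNT within each of the 12 libraries; horizontal marks are means and bars the SD (n = 3). The ratio of alpha subunits to partners is 8.39 with JQ1 and 5.02 with DMSO in VHL-negative cells, and 28.1 with JQ1 and 16.1 with DMSO in VHL-positive cells.

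Ratios of CPM per kilobase of exon set the subunits against each other within a library. HIF1A stood at 1.44 ± 0.127 times EPAS1 in VHL-negative cells with JQ1 and 1.19 ± 0.0389 times with DMSO. The same ratio was 3.38 ± 0.285 with JQ1 and 3.69 ± 0.463 with DMSO in VHL-positive cells. HIF1A and EPAS1 together stood at 8.39 ± 0.117 times ARNT and ARNT2 together in VHL-negative cells with JQ1, against 5.02 ± 0.579 times with DMSO. In VHL-positive cells these ratios were 28.1 ± 1.75 with JQ1 and 16.1 ± 2.82 with DMSO. The treated and control libraries of each line did not overlap in this ratio. The ratio of ARNT2 to ARNT was 1.13 ± 0.159 with JQ1 and 1.23 ± 0.078 with DMSO in VHL-negative cells, and 0.524 ± 0.0498 with JQ1 and 0.608 ± 0.176 with DMSO in VHL-positive cells. By the longest coding transcript in place of all exons it was 0.976 with JQ1 in VHL-negative cells, so which partner was the more abundant there depends on the length used. No test was run on these ratios of members, which are given as values.

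Of the prolyl hydroxylases, EGLN3 set the lines apart. EGLN3 (ENSG00000129521, chr14:33924231-34462774), which hydroxylates HIF alpha subunits and is itself a known HIF target, had 43.7, 37.8 and 41.7 CPM in VHL-negative cells with JQ1 and 29.3, 29.3 and 30.6 CPM in VHL-negative cells with DMSO. The VHL-positive libraries had 2.62, 2.43 and 2.18 CPM with JQ1 and 1.28, 1.18 and 1.26 CPM with DMSO, which rest on 38 to 72 counts and on 30 to 42 counts per library. No groups overlapped. EGLN3 was 16.9-fold higher in VHL-negative cells under JQ1 (log2 4.08, adjusted p = 1.45e-12, SE 0.144) and 23.8-fold higher under DMSO (log2 4.57, adjusted p = 1.16e-12, SE 0.152). JQ1 raised it 1.38-fold in VHL-negative cells (log2 0.47, adjusted p = 0.00648, SE 0.119) and 1.95-fold in VHL-positive cells (log2 0.96, adjusted p = 0.000293, SE 0.164). The call in VHL-negative cells was lost when the third JQ1 library was left out in each line (adjusted p = 0.0555) and when genes with low counts were kept (adjusted p = 0.111). The JQ1 effects differed by log2 -0.49 (95% interval -0.92 to -0.07), which missed the threshold after adjustment (adjusted p = 0.17).

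EGLN1 (ENSG00000135766, chr1:231363751-231425044), the main oxygen sensor of most cells, lay between 48.9 and 67.8 CPM in all 12 libraries. It had 53.9, 48.9 and 54.8 CPM with JQ1 and 50.1, 50.4 and 53.3 CPM with DMSO in VHL-negative cells. VHL-positive cells had 67.8, 60.6 and 66.5 CPM with JQ1 and 65.6, 49.5 and 60.3 CPM with DMSO. No comparison called it. Its interval was -0.23 to 0.30 for JQ1 in VHL-negative cells, -0.11 to 0.42 for JQ1 in VHL-positive cells and -0.45 to 0.07 between the lines under DMSO. Under JQ1 all VHL-negative libraries lay below all VHL-positive ones (log2 -0.31, 95% interval -0.57 to -0.04, adjusted p = 0.0602), and DESeq2 (adjusted p = 0.0428) and a fit of the compared groups alone (adjusted p = 0.0336) called this fall, as did the fits without the first JQ1 library of VHL-negative cells (adjusted p = 0.0496) and without the first (adjusted p = 0.0442) or second (adjusted p = 0.0342) DMSO library of VHL-positive cells.

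EGLN2 (ENSG00000269858, chr19:40798996-40808433), the third prolyl hydroxylase, had a low measured level. It had 8.48, 12.4 and 10.6 CPM with JQ1 and 8.37, 9.41 and 7.67 CPM with DMSO in VHL-negative cells, and 5.97, 8.99 and 8.95 CPM with JQ1 and 8.66, 7.87 and 8.76 CPM with DMSO in VHL-positive cells. The libraries overlapped in every comparison and none was called. The closest was that between the lines under JQ1 (log2 0.39, 95% interval 0.00 to 0.78, adjusted p = 0.1), which total counts (adjusted p = 0.0435), the fit to protein-coding genes (adjusted p = 0.0476) and the fit without the first JQ1 library of VHL-negative cells (adjusted p = 0.0366) called as a rise. Its counts are uncertain, because 30.59% of its exon length is shared on the same strand with the readthrough gene RAB4B-EGLN2 and with AC008537.1, both listed with 0 counts in every library. Whether this sharing lowers the measured level of EGLN2 was not tested.

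The upstream windows of EGLN3 and EGLN1 are shown because EGLN3 was called between the lines in both treatments and EGLN1 in neither. The rule for capitals is the one given for HIF1A and EPAS1. EGLN1 (chr1:231422288-231422537, minus strand) held 1 ACGTG, and its window lies inside the GENCODE gene span. EGLN3 (chr14:33951075-33951324, minus strand) held neither core in these 250 bases. That window lies inside the GENCODE gene span, 511.7 kb downstream of the annotated 5′ end, and the result says only that the letters are absent from this window. Of the other members with an entry, ARNT and HIF1AN held none, the first of EGLN2's windows held 2 ACGTG, and the first of HIF3A's held 3 GCGTG.
EGLN3: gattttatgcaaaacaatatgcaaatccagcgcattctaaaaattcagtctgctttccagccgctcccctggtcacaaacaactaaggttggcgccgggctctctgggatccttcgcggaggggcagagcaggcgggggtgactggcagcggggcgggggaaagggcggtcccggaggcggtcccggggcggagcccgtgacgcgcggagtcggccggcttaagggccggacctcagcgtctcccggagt
EGLN1: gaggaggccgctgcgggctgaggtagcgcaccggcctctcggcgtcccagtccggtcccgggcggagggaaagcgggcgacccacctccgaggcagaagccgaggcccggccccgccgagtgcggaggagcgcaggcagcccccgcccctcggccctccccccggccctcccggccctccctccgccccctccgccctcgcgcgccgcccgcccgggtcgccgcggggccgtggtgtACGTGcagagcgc

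Per kilobase of exon, EGLN3 stood at 0.772 ± 0.0261 times EGLN1 in VHL-negative cells with JQ1 and 0.572 ± 0.00519 times with DMSO. In VHL-positive cells the ratio was 0.0367 ± 0.00383 with JQ1 and 0.0211 ± 0.00218 with DMSO. EGLN3 made up 0.387 ± 0.0166 of the summed prolyl hydroxylase RNA in VHL-negative cells with JQ1 and 0.326 ± 0.00322 with DMSO, against 0.0313 ± 0.00339 with JQ1 and 0.0179 ± 0.00159 with DMSO in VHL-positive cells. The annotated EGLN3 locus is long, with 19 exon blocks, and by the longest coding transcript EGLN3 stood at 1.95 times EGLN1 with JQ1 and 1.44 times with DMSO in VHL-negative cells. By that length EGLN3 made up 0.564 of the sum with JQ1 and 0.505 with DMSO in these cells. The sum includes EGLN2, whose counts are uncertain. Whether EGLN3 or EGLN1 had more RNA in VHL-negative cells therefore depends on the length used, whereas EGLN1 was above EGLN3 in VHL-positive cells by either length.

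HIF1AN (ENSG00000166135, chr10:100529072-100559998), the asparaginyl hydroxylase also called FIH, was called with JQ1 in both lines and was not called between them. It had 117, 110 and 114 CPM in VHL-negative cells with JQ1 and 85.9, 78.0 and 73.2 CPM in VHL-negative cells with DMSO. VHL-positive cells had 98.9, 104 and 102 CPM with JQ1 and 75.5, 75.7 and 78.9 CPM with DMSO. The treated libraries did not overlap the controls in either line. HIF1AN rose 1.44-fold with JQ1 in VHL-negative cells (log2 0.53, adjusted p = 0.00167, SE 0.111) and 1.32-fold in VHL-positive cells (log2 0.40, adjusted p = 0.0106, SE 0.111), where the call was lost with total counts (log2 0.29, adjusted p = 0.0724), when genes with low counts were kept (adjusted p = 0.102) and when the third JQ1 library was left out in each line (adjusted p = 0.0684). Between the lines the change was log2 0.16 under JQ1 (95% interval -0.07 to 0.40, adjusted p = 0.25) and 0.04 under DMSO (95% interval -0.19 to 0.28, adjusted p = 0.811). Under JQ1 this was called as a rise with total counts (adjusted p = 0.0352) and in the fit to protein-coding genes (adjusted p = 0.0196).

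**Figure D3:**
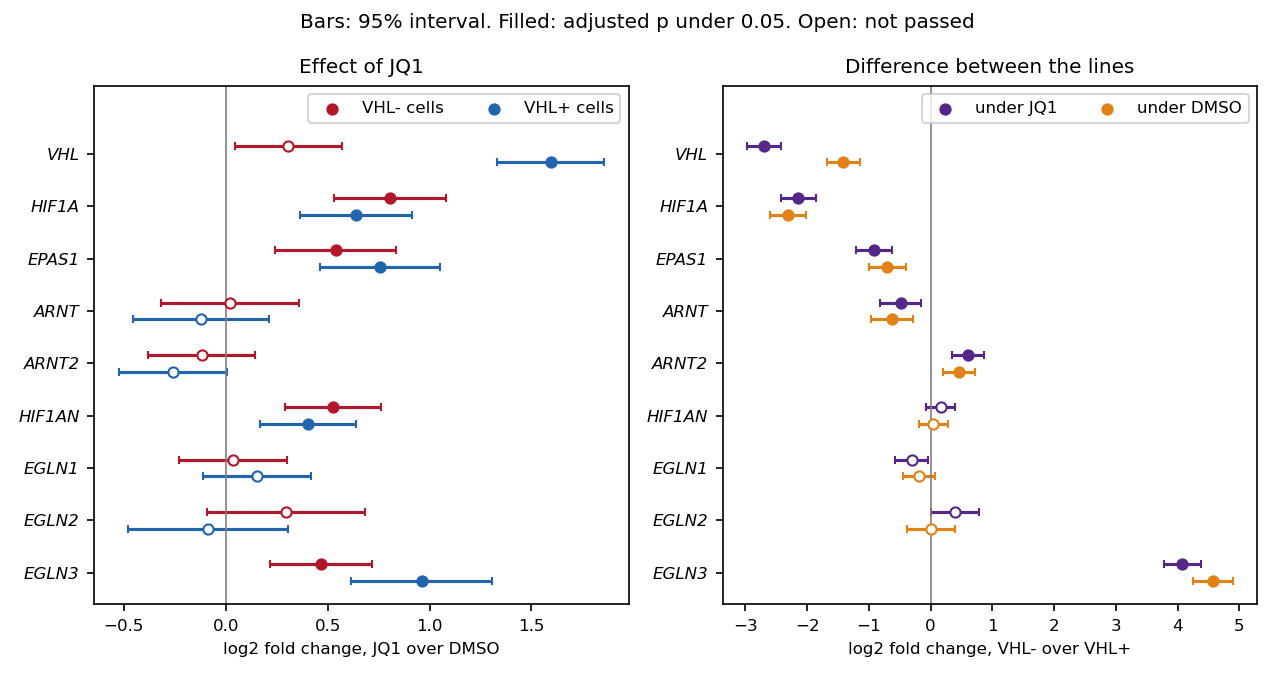
Log2 fold change (x axis) of 9 genes with 95% intervals, for JQ1 over DMSO in each line (left) and for VHL-negative over VHL-positive cells under each treatment (right); filled points passed an adjusted p of 0.05 and open points did not. With JQ1 the called genes, 4 in VHL-negative and 5 in VHL-positive cells, all lie to the right of 0, whereas between the lines EGLN3 and ARNT2 lie to the right and VHL, HIF1A, EPAS1 and ARNT to the left.

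Counted over the 9 tested genes, JQ1 raised 4 and lowered none in VHL-negative cells (HIF1A, EPAS1, HIF1AN and EGLN3), in a comparison that called 32.2% of all tested genes, 14.7% as rises and 17.5% as falls. In VHL-positive cells it raised 5 and lowered none, the same genes and VHL, where 31.7% of all genes were called, 15.3% as rises and 16.4% as falls. The median change was log2 0.31 over the members in VHL-negative cells, against 0.03 over all genes, and 0.40 against -0.03 in VHL-positive cells. With total counts alone the VHL-positive comparison had 4 rises and 1 fall (ARNT2), and the fit to protein-coding genes gave 5 rises and 1 fall. VHL-negative against VHL-positive cells gave 2 rises and 4 falls under JQ1, where 41% of all genes were called (19.8% higher, 21.2% lower). Total counts alone, and likewise the fit to protein-coding genes, gave 4 rises and 3 falls there. Under DMSO there were again 2 rises and 4 falls, where 30.7% were called (14.8% higher, 15.9% lower). The difference between the JQ1 effects was called for 1 of 9 (VHL), against 1.4% of all genes (0.594% as rises, 0.811% as falls). Libraries did not overlap for 5 and 6 of the 9 genes with JQ1 in VHL-negative and VHL-positive cells, where 43.1% and 48.2% of all tested genes did the same. Between the lines this held for 8 genes under JQ1 and 6 under DMSO, against 52.9% and 42.7%. No member had a fall with JQ1 at an unadjusted p under 0.05, and DESeq2 and limma-voom called 0 such falls. The members' counts were not tested against these shares, and with 9 genes nothing particular to the oxygen sensing set is read from them.

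In the authors' deposited table for VHL-negative cells the log2 fold change was 0.77 for HIF1A, 0.51 for EPAS1, 0.49 for HIF1AN and 0.44 for EGLN3, and 0.28 for VHL (adjusted p = 0.0911). The authors' deposited table for VHL-positive cells had 1.60 for VHL, 0.64 for HIF1A, 0.76 for EPAS1, 0.41 for HIF1AN and 0.97 for EGLN3.

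Ordered by RNA level per kilobase of exon, HIF1A held rank 1 and EPAS1 rank 2 in all 4 groups, by either gene length. In VHL-negative cells with JQ1 the order was HIF1A (43.1 ± 2.34 CPM per kb), EPAS1 (30.0 ± 1.02), HIF1AN (8.15 ± 0.237), VHL (7.76 ± 0.567), EGLN1 (7.23 ± 0.438), EGLN3 (5.58 ± 0.41), ARNT2 (4.60 ± 0.296), ARNT (4.12 ± 0.345), EGLN2 (1.59 ± 0.298) and HIF3A (0.0204 ± 0.0136). There the libraries of VHL overlapped those of HIF1AN and those of EGLN1, and the libraries of ARNT2 overlapped those of ARNT, whereas HIF1AN lay above EGLN1 in every library. The order below rank 2 depends on the length used, and the place of EGLN2 rests on its uncertain counts. By the longest coding transcript EGLN3 held rank 3 in this group (14.4 ± 1.06 CPM per kb), VHL rank 4, HIF1AN rank 5 and EGLN1 rank 6. ARNT then held rank 7 and ARNT2 rank 8. In VHL-positive cells with JQ1 VHL held rank 3 (50.4 ± 3.33 CPM per kb), with libraries that overlapped those of EPAS1 (56.6 ± 7.18), and EGLN3 rank 9 (0.328 ± 0.0299). Under DMSO VHL held rank 4 in VHL-negative cells (6.27 ± 0.39 CPM per kb) and rank 3 in VHL-positive cells (16.7 ± 1.81). By the longest coding transcript VHL held rank 5 in VHL-negative cells with DMSO, and EGLN3 moved there from rank 8 to rank 3.

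Other regulators of HIF were counted from a list of 15 genes, among them coactivators, CITED proteins, ubiquitin ligases, the deubiquitinase USP20 and the SUMO protease SENP1. With JQ1, 4 rose and 1 fell in VHL-negative cells and 5 rose and 2 fell in VHL-positive cells, with medians of log2 0.31 and 0.25 against 0.03 and -0.03 over all genes. Of all tested genes 14.7% rose and 17.5% fell in VHL-negative cells, and 15.3% rose and 16.4% fell in VHL-positive cells. In VHL-negative cells the list had 2 to 5 rises and 1 to 4 falls when 1 library was left out, with the fewest rises without the second or the third DMSO library and the most falls without the first JQ1 library of these cells. It had 7 rises with the 1 CPM filter and in the fit to protein-coding genes. Total counts alone gave 3 rises in VHL-positive cells. SENP1, a SUMO protease that stabilises HIF1A protein in mice, fell to 14.0 ± 1.90 CPM with JQ1, against 41.5 ± 6.59 CPM with DMSO, in VHL-negative cells (log2 -1.56, adjusted p = 1.44e-06, SE 0.156). In VHL-positive cells it fell to 14.6 ± 0.468 CPM with JQ1, against 42.0 ± 6.83 CPM with DMSO (log2 -1.53, adjusted p = 2.33e-06, SE 0.156). USP20, a deubiquitinase of HIF1A protein, rose in VHL-negative cells (log2 0.69, adjusted p = 0.000942) and in VHL-positive cells (log2 0.86, adjusted p = 0.000156). CREBBP, an acetyltransferase coactivator, fell with JQ1 in VHL-positive cells (log2 -1.31, adjusted p = 0.000673, SE 0.238), to 51.4 ± 12.1 CPM, against 127 ± 8.93 CPM with DMSO.

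Between the lines the same list gave 1 rise and 4 falls under JQ1 and 2 rises and 2 falls under DMSO. The medians were log2 -0.05 and -0.073, against 0.033 and 0.002 over all genes. Of all tested genes 19.8% were higher and 21.2% lower in VHL-negative cells under JQ1, and 14.8% and 15.9% under DMSO. CITED4, a protein that competes for the coactivator, was lower in VHL-negative cells, at 3.16 ± 0.0162 CPM against 12.0 ± 1.76 CPM in VHL-positive cells under JQ1 (log2 -1.92, adjusted p = 1.23e-06, SE 0.203). Under DMSO it had 2.20 ± 0.474 CPM in VHL-negative and 9.61 ± 2.14 CPM in VHL-positive cells (log2 -2.13, adjusted p = 3.64e-07, SE 0.206). WSB1, a ubiquitin ligase subunit, was higher in VHL-negative cells under JQ1 (138 ± 21.3 against 62.1 ± 4.34 CPM, log2 1.15, SE 0.136) and under DMSO (82.4 ± 3.89 against 51.8 ± 5.79 CPM, log2 0.67, SE 0.135). Under JQ1 total counts alone called 5 rises in this list.

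Among 11 bHLH-PAS relatives of the HIF subunits, transcription factors with the same fold, 9 were tested. JQ1 raised 1 and lowered 1 of these relatives in each line. Of all tested genes 14.7% rose and 17.5% fell in VHL-negative cells, and 15.3% and 16.4% in VHL-positive cells. AHR, the dioxin receptor that also pairs with ARNT, rose with JQ1 to 73.9 ± 11.4 CPM, against 56.5 ± 6.61 CPM with DMSO, in VHL-negative cells (log2 0.39, adjusted p = 0.0368, SE 0.135). In VHL-positive cells AHR had 81.1 ± 4.62 CPM with JQ1 and 53.0 ± 3.52 CPM with DMSO (log2 0.61, adjusted p = 0.00239, SE 0.136). In VHL-negative cells the rise of AHR was not called with total counts, with no filter on low counts, with the compared groups alone, or in 8 of 12 fits made with a single library left out. NPAS2, a clock factor, fell with JQ1 in VHL-negative cells (log2 -0.60, adjusted p = 0.0108) and in VHL-positive cells (log2 -0.82, adjusted p = 0.00103), and no other relative passed in either line. In VHL-negative cells the fall of NPAS2 was not called without the first DMSO library (adjusted p = 0.072). Between the lines SIM1 and NPAS2 were lower and CLOCK and NPAS3 higher in VHL-negative cells in both treatments. All tested genes had 19.8% higher and 21.2% lower under JQ1, and 14.8% and 15.9% under DMSO. SIM1, a factor of neural development, had 19.3 ± 2.41 CPM in VHL-negative and 40.9 ± 2.86 CPM in VHL-positive cells under JQ1 (log2 -1.08, adjusted p = 0.000226, SE 0.188). The call of NPAS2 under JQ1 was lost with total counts and without the second JQ1 library of VHL-positive cells (adjusted p = 0.074). NPAS3 had 13 to 17 counts per library in VHL-negative and 0 to 5 in VHL-positive cells under JQ1, and its call was lost without the first JQ1 library of VHL-positive cells (adjusted p = 0.0501) and, under DMSO, without the third DMSO library (adjusted p = 0.0512).

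Target genes show the output of the pathway, and they were counted on lists of genes usually assigned to HIF-1 or to both factors and of genes usually assigned to HIF-2 in renal carcinoma cells. These lists, like the others here, were chosen with earlier results of these data known. On the list for HIF-1 or both, 26 of 28 were higher in VHL-negative cells and none lower, under JQ1 and again under DMSO, with medians of log2 1.93 and 1.69 against 0.03 and 0.00 over all genes. Of all tested genes 19.8% were called higher and 21.2% lower in VHL-negative cells under JQ1, and 14.8% and 15.9% under DMSO. No gene of this list was lower in VHL-negative cells at an unadjusted p under 0.05, nor by DESeq2 or limma-voom. HIF1A and EPAS1 RNA was lower in the same cells.

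ADM, which encodes the vessel dilating peptide adrenomedullin, had 541 ± 90.5 CPM in VHL-negative and 16.03 ± 0.26 CPM in VHL-positive cells under JQ1 (log2 5.08, adjusted p = 5.34e-13, SE 0.163), and 148 ± 9.56 and 6.15 ± 0.742 CPM in these lines under DMSO (log2 4.59, adjusted p = 1.22e-12, SE 0.162). PFKFB4, a regulator of glycolysis, had 87.3 ± 1.72 CPM in VHL-negative and 6.78 ± 0.238 CPM in VHL-positive cells under JQ1 (log2 3.69, adjusted p = 2.72e-12, SE 0.138). PDK1, a kinase that shuts off pyruvate dehydrogenase, had 148 ± 12.1 CPM in VHL-negative and 37.4 ± 3.46 CPM in VHL-positive cells under JQ1 (log2 1.99, adjusted p = 3.09e-09, SE 0.132). CA9, the carbonic anhydrase used as a marker of this tumour, had 2126 to 2563 counts per library in VHL-negative cells and 3 to 5 in VHL-positive cells under DMSO.

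On the HIF-2 list 10 of 12 genes were tested. Under JQ1 5 were higher and 2 lower in VHL-negative cells, and under DMSO 6 were higher and 1 lower. The medians were log2 0.291 and 0.717, against 0.033 and 0.002 over all genes. Of all tested genes 19.8% were higher and 21.2% lower under JQ1, and 14.8% and 15.9% under DMSO. NDUFA4L2, a mitochondrial protein, had 335 ± 43.8 CPM in VHL-negative and 2.98 ± 1.52 CPM in VHL-positive cells under JQ1 (log2 6.76, adjusted p = 1.38e-08, SE 0.384). ITPR1, an endoplasmic reticulum calcium channel, had 57.0 ± 0.586 CPM in VHL-negative and 16.8 ± 1.01 CPM in VHL-positive cells under JQ1 (log2 1.76, adjusted p = 4.71e-09, SE 0.121). IGFBP3, which binds insulin-like growth factors, was lower in VHL-negative cells under DMSO (522 ± 71.3 against 1174 ± 118 CPM, log2 -1.17, adjusted p = 1.93e-05, SE 0.157), opposite to the direction its list implies.

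**Figure D4:**
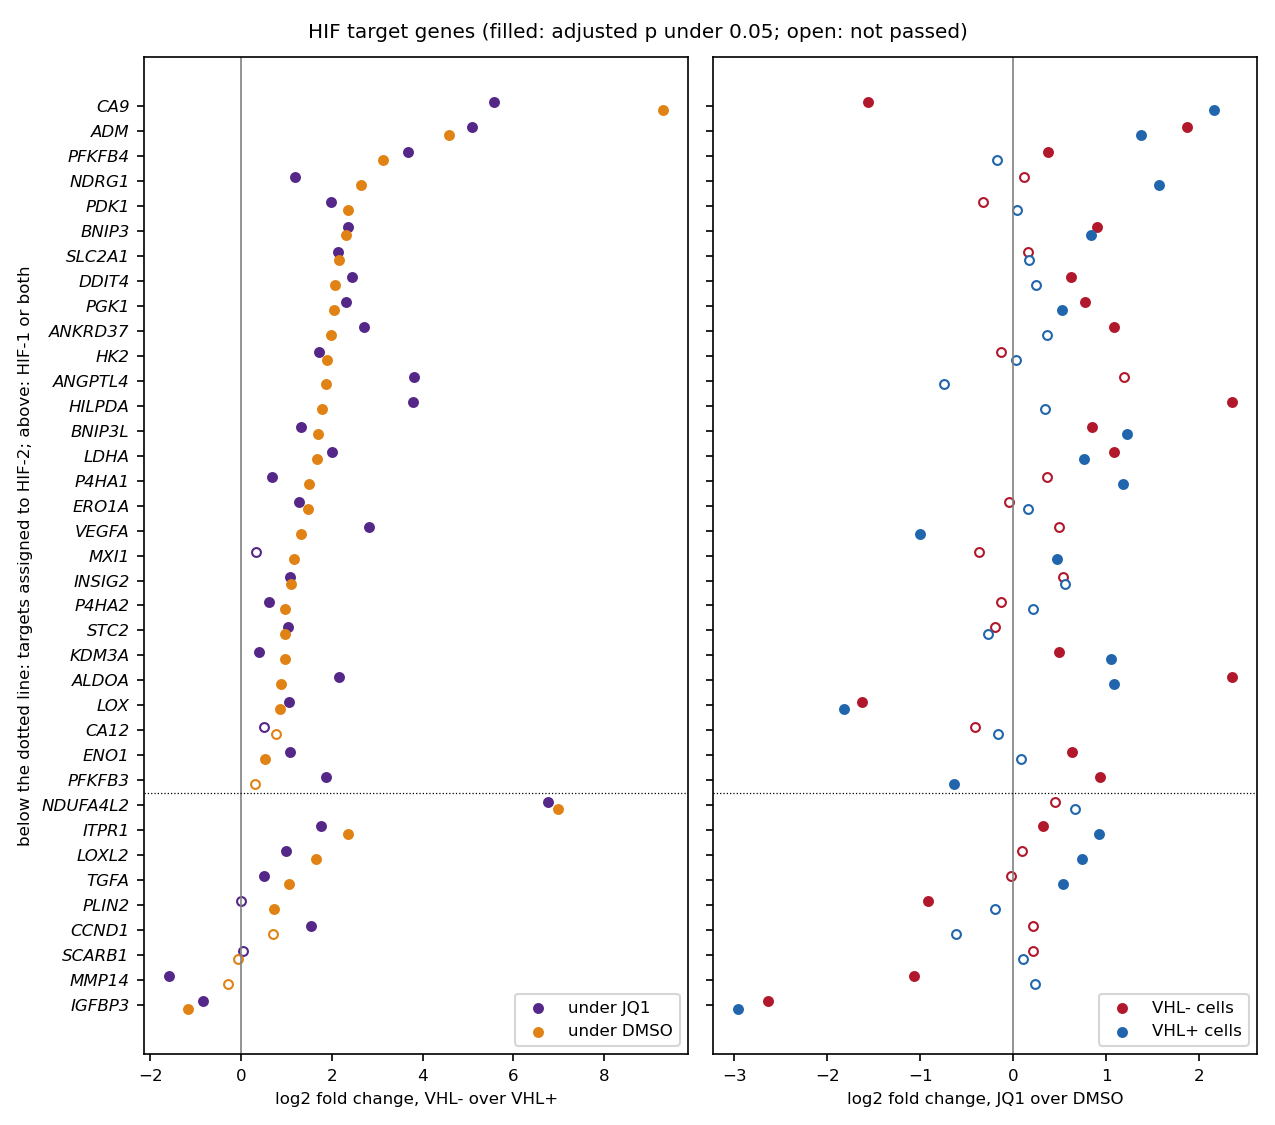
Log2 fold change (x axes) of 37 HIF target genes (rows), for VHL-negative over VHL-positive cells under each treatment (left) and for JQ1 over DMSO in each line (right); filled points passed an adjusted p of 0.05 and open points did not. Nearly all genes above the dotted line lie to the right of 0 in the left panel, whereas JQ1 moved them both ways in the right panel, with HILPDA at 2.35 and LOX at -1.62 in VHL-negative cells.

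JQ1 moved the targets in both directions. On the list for HIF-1 or both, 13 rose, 2 fell and 13 did not pass in VHL-negative cells (median log2 0.49), and 11 rose, 3 fell and 14 did not pass in VHL-positive cells (median log2 0.29). Called rises made up 14.7% of all tested genes in VHL-negative and 15.3% in VHL-positive cells, and called falls 17.5% and 16.4%. HILPDA, a lipid droplet protein, rose to 110 ± 3.29 CPM with JQ1, against 21.6 ± 3.79 CPM with DMSO, in VHL-negative cells (log2 2.35, adjusted p = 5.06e-09, SE 0.135). The glycolytic enzyme ALDOA rose to 63.0 ± 5.30 CPM with JQ1, against 12.3 ± 3.56 CPM with DMSO, in VHL-negative cells (log2 2.36, adjusted p = 1.73e-05, SE 0.277). Exon sharing with other genes was examined for the members alone, so whether ALDOA's counts are complete was not tested. ADM rose in VHL-negative cells (log2 1.87, adjusted p = 7.56e-08) and in VHL-positive cells (log2 1.38, adjusted p = 4.27e-06). LOX, the lysyl oxidase that crosslinks collagen, fell in VHL-negative cells (log2 -1.62, adjusted p = 4.33e-07, SE 0.144) and in VHL-positive cells (log2 -1.82, adjusted p = 2.51e-07, SE 0.148).

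On the HIF-2 list JQ1 raised 1 and lowered 4 of 10 in VHL-negative cells and raised 3 and lowered 2 in VHL-positive cells. The medians were log2 0.035 and 0.173, against 0.034 and -0.027 over all genes. Of all tested genes 14.7% rose and 17.5% fell in VHL-negative cells, and 15.3% and 16.4% in VHL-positive cells. IGFBP3 fell to 83.7 ± 14.6 CPM with JQ1, against 522 ± 71.3 CPM with DMSO, in VHL-negative cells (log2 -2.64, adjusted p = 1.28e-08, SE 0.166), and to 151 ± 15.1 CPM, against 1174 ± 118 CPM, in VHL-positive cells (log2 -2.96, adjusted p = 2.91e-09, SE 0.168). The rise called in VHL-negative cells was that of ITPR1 (log2 0.33, adjusted p = 0.0408). Leaving out a single library ended this call in 10 of 12 cases, and total counts, no filter on low counts, the compared groups alone and the replicate block also ended it.

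The difference between the JQ1 effects was called for 3 genes as higher and 2 as lower of the 28 targets of HIF-1 or both, and for 1 as lower of the 10 tested HIF-2 targets, given as VHL-negative minus VHL-positive. Of all tested genes 1.4% were called, 0.594% as higher and 0.811% as lower. With 1 library left out the counts of target genes ran from 2 to 4, from 0 to 5 and from 1 to 5. The 2 falls on the first of these lists were 0 without the third JQ1 library of VHL-negative cells or the first of VHL-positive cells, and 5 without the first JQ1 library of VHL-negative cells, where the HIF-2 list also had 5. DESeq2 called 5 falls on the first list and 3 on the HIF-2 list, and limma-voom called 1 on the first list. The difference was called for 0 of the 4 ligase partners, 0 of the 9 relatives and 0 of the 15 other regulators. These lists are too short to read a 0 against a share of 1.4%. DESeq2 called 1 ligase partner and 1 other regulator, and limma-voom none. At an unadjusted p under 0.05 there were 1 ligase partner, 0 relatives and 4 other regulators.

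For 5 members, the genes most like them over all 12 libraries were sought by Pearson's r of log2 CPM among genes of at least 4 log2 CPM on average. These are descriptions over 12 libraries that share 4 groups, so a gene that differs between the groups in the same way scores high. VHL was most like SERINC5 (r = 0.987), AP3S2 (0.985) and TANC1 (0.984), with SERINC5 at 82.6 ± 6.15 CPM with JQ1 and 51.4 ± 3.02 CPM with DMSO in VHL-positive cells. HIF1A was most like STON2 (r = 0.991), SEMA3F (0.989) and SEMA5A (0.988). STON2, an endocytic adaptor, had 6.78 ± 0.907 CPM in VHL-negative and 72.9 ± 7.76 CPM in VHL-positive cells under JQ1. EPAS1 was most like DELE1 (r = 0.984), MKNK2 (0.982) and KATNIP (0.979). EGLN3 was most like PDK3 (r = 0.994), PPFIA4 (0.992) and IRS2 (0.991). PDK3, another kinase of pyruvate dehydrogenase, had 105 ± 9.90 CPM in VHL-negative and 17.4 ± 1.64 CPM in VHL-positive cells under JQ1. HIF1AN was most like BRD2 (r = 0.977), ZNF280C (0.976) and DCXR (0.974). BRD2, a BET protein of the class JQ1 binds, had 538 ± 49.2 CPM with JQ1 and 199 ± 41.1 CPM with DMSO in VHL-negative cells.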

How the data were processed

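Raw counts per Ensembl gene were deposited by the authors as whole numbers. Per the submitters' processing notes the tools were STAR 2.7.8, Subread 2.0.3, featureCounts and DESeq2 1.30.1 on GRCh38. Strandedness of the counting: not given in the sources used here. For each line the authors' deposited table of its JQ1 effect holds log2 fold changes with standard errors, a test statistic (a score), p-values with adjusted p-values, and, of another (other) kind, mean counts divided by size factors. RNA was total RNA treated with DNase and depleted of ribosomal RNA, per the labels.

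Counts were analysed here in R 4.3.3 with edgeR 4.0.16 (TMM, filter on low counts by group, 20714 genes holding 99.87% of counts, quasi-likelihood test, 1 mean per group over 12 libraries), limma 3.58.1 and DESeq2 1.42.0. Of 60663 identifiers, 60462 had a symbol and 58395 were in GENCODE release 29, which gave positions and lengths. Promoters came from RefSeq (8 of 10 genes had an entry; VHL and ARNT2 had none in the table used here). All 10 members are named, with up to 4 genes of smallest p per list and comparison and the 3 genes most like 5 of the members; CA9 and NPAS3 counts were chosen after their values were seen. On the list of HIF-2 targets 1 gene is counted, and its own values are not reported here. The members and lists were chosen with earlier results of these data known. Intervals of edgeR values use 95%. The edgeR fit was run on simulated data for JQ1 in VHL-negative cells alone, with results not reported here. The other comparisons, DESeq2 and limma-voom were not tested in this way.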

Additional observations from a re-analysis of the deposited data

Results flagged for a closer look

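The JQ1 effect differed between the lines, by the test of the difference itself (edgeR, adjusted p under 0.05, VHL-negative minus VHL-positive), for VHL and for 6 target genes on the lists. For VHL the difference was log2 -1.29 (adjusted p = 0.00123). HILPDA differed by log2 2.01 (adjusted p = 4.21e-05), with 110 ± 3.29 CPM with JQ1 and 21.6 ± 3.79 CPM with DMSO in VHL-negative cells, and 7.92 ± 0.312 CPM with JQ1 and 6.28 ± 0.277 CPM with DMSO in VHL-positive cells. PFKFB3, which drives glycolysis, differed by log2 1.57 (adjusted p = 0.000583): it rose in VHL-negative cells (log2 0.94) and fell in VHL-positive cells (log2 -0.64). VEGFA, the vessel growth factor, differed by log2 1.5 (adjusted p = 0.0129, and 0.0523 without the second JQ1 library of VHL-positive cells) and fell in VHL-positive cells (log2 -1.01). The difference was also not called when the third JQ1 library was left out in each line. In VHL-positive cells with DMSO VEGFA spread widely, at 47.0, 92.7 and 51.3 CPM. With a single library left out, the difference ran from log2 1.11 to 1.67. The fall then ran from log2 -1.18 to -0.62 and stayed called in all 12 fits. NDRG1 differed by log2 -1.45 (adjusted p = 0.0155) and rose in VHL-positive cells (log2 1.57), and its difference was not called without the third JQ1 library of VHL-negative cells or the first of VHL-positive cells (highest adjusted p = 0.0588). MMP14, a membrane protease, differed by log2 -1.31 (adjusted p = 0.00117) and fell in VHL-negative cells (log2 -1.07). CA9 differed by log2 -3.73 (adjusted p = 0.0245). In VHL-negative cells it fell to 28.1 ± 5.36 CPM with JQ1, against 83.5 ± 12.35 CPM with DMSO (log2 -1.57, adjusted p = 0.000464). This fall was called in all 12 fits made with a single library left out. The rise of CA9 in VHL-positive cells (log2 2.16, adjusted p = 0.0264) rests on 26, 16 and 0 counts with JQ1 and 3, 3 and 5 counts with DMSO. The difference for CA9 was not called by limma-voom or in 5 of 12 fits made with a single library left out. The differences for VHL, HILPDA, PFKFB3 and MMP14 were called in all 12 of these fits.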

How the results depend on the processing

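The count of members called was the same as reported in every fit that left out 1 library for JQ1 in VHL-negative cells (4), JQ1 in VHL-positive cells (5) and the difference (1), and ran from 5 to 6 between the lines under DMSO and from 5 to 8 under JQ1. With the third JQ1 library left out in each line, JQ1 called 2 members in VHL-negative cells and the difference called 0 of them (2 at an unadjusted p under 0.05) and 24 of all genes, where fewer samples entered. All genes called were then 4008 for JQ1 in VHL-negative cells, 4178 in VHL-positive cells and 4852 between the lines under JQ1. All genes called for the difference were 291, against 1228 with no filter, 1188 with DESeq2 and 66 to 3624 with 1 library left out. With 1 library left out, all genes called ran from 4687 to 8107 and from 4722 to 7335 for JQ1 in VHL-negative and VHL-positive cells.

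For the values that reversed, no fit called the gene in the comparison concerned (lowest adjusted p = 0.166). They were ARNT (log2 -0.0434) and EGLN1 (-0.0257) for JQ1 in VHL-negative cells with no filter, EGLN2 under DMSO between the lines with the 1 CPM filter (-0.0054), the compared groups alone (-0.0079) and protein-coding genes only (-1e-04), and EGLN1 for the difference with protein-coding genes only (0.0191). With 1 library left out, ARNT ran from -0.0349 to 0.0602 for JQ1 in VHL-negative and from -0.2759 to 0.0973 in VHL-positive cells and from -0.0902 to 0.2911 for the difference, EGLN2 from -0.1756 to 0.1044 for JQ1 in VHL-positive cells and from -0.079 to 0.08 under DMSO, and HIF1AN from -0.0168 to 0.0963 under DMSO. Without the second JQ1 library of VHL-negative cells and the first DMSO library of both lines, which was chosen after seeing the data, ARNT was -0.0699 and 0.0821 for JQ1 in VHL-negative and VHL-positive cells and -0.152 for the difference, and HIF1AN was -0.0367 under DMSO. The cause was not tested.

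With total counts alone the median of all genes shifted by log2 -0.114 for JQ1 in VHL-positive cells and by 0.156 between the lines under JQ1. Rises were then 34.3% of calls against 48.4%, and 62% against 48.3%, and 56.1% against 42.3% for the difference. The replicate numbers did not clearly pair the samples. After group means were removed, 4 of 18 pairs sharing a number correlated above 0.1 (highest r = 0.335), all in replicates 1 and 2. Of 12 libraries, 5 correlated best with libraries of their own number. With 3 libraries per group these values cannot tell whether the samples were paired. A fit with a replicate block called 4, 5, 6, 6 and 1 members in the 5 comparisons, unchanged. Depth limits HIF3A, EGLN2 and EGLN3 in VHL-positive cells most, and the counts of EGLN2 are also uncertain because of its shared exons.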
